A study of Mus musculus with 12 samples.

Results

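The jejunum is the middle stretch of the small intestine, and the question here was which genes stood higher or lower there than at both ends, the duodenum and the ileum, instead of changing along the length. Of 12 mouse libraries, 4 are jejunal by their labels: 2 from crypts, 1 from organoids and 1 from villi. The 8 others are 4 from duodenum and 4 from ileum with the same makeup of tissues. Crypts are the pits of the gut lining that hold stem and Paneth cells, villi are the projections covered by mature absorptive cells (enterocytes), and organoids are epithelial cultures, here 12 weeks old. All groups are described by tissue and origin, and the labels give no strain, age, sex, genotype or treatment for any of them. Organoids and villi have 1 library per origin and no replicate. Nothing says that the 2 crypt libraries of an origin come from separate mice, so the p-values measure the spread between these libraries, which may be technical. In the main fit they also measure how the pattern over origins differs between tissues.

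The jejunum takes up much of the digested sugar, protein and fat of a meal. Its enterocytes carry enzymes on their brush border that finish digestion, transporters that bring the products in, and an assembly line that packs fat into chylomicrons. Uptake of iron and active uptake of calcium are best known from the duodenum, and uptake of bile acids and cobalamin from the ileum, so a gene can mark an end without marking the middle.

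The libraries held between 5268480 and 18591819 reads, as implied by their values, with 2332849 to 10935217 of them in genes. The jejunal organoid library was the deepest, and 58.8% of its reads lay in genes, against 73.2% and 75.0% in the duodenal and ileal organoid libraries. Lyz (now Lyz1), the lysozyme of Paneth cells, was at 6030 and 2970 RPKM in the jejunal crypt libraries, 1970 RPKM in jejunal organoids and 79.8 RPKM in jejunal villi, so crypt and organoid libraries held far more of this marker than villi. Enterocyte markers were unevenly spread. Their summed level over 17 genes was 859, 2120 and 1120 RPKM for duodenum, jejunum and ileum in crypt replicate 1 and 8950, 25000 and 13400 RPKM in crypt replicate 2. It was 3490, 5180 and 2930 RPKM in organoids and 103000, 57300 and 53800 RPKM in villi. The jejunal library was thus the highest of its set in crypts and organoids, and lay between the ends in villi. Markers of T and intraepithelial lymphocytes summed to 3.89 and 10.7 RPKM in jejunal crypts, 1.66 RPKM in jejunal organoids and 576, 245 and 122 RPKM in duodenal, jejunal and ileal villi. Markers of fibroblasts and smooth muscle reached 100 RPKM at most, in ileal villi.

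For each gene the jejunum contrast is the jejunal level minus the mean of duodenum and ileum on the log2(RPKM + 1) scale, where RPKM is the read count scaled to exon length and to the reads of the library. It was fitted over the 12 libraries with tissue as a covariate. A gene is called a peak when its fitted jejunal level lay above both ends, a dip when it lay below both, and a step when it lay between them. The libraries also form 4 sets of 1 duodenal, 1 jejunal and 1 ileal library each: crypt replicate 1, crypt replicate 2, organoids and villi.

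No gene differed between jejunum and both ends after adjustment. Of 11825 genes tested, 0 had an adjusted p under 0.05 in limma (0% in either direction, smallest adjusted p = 1), and 249 (2.11%) had an unadjusted p under 0.05, 89 of them higher in jejunum (0.753%) and 160 lower (1.35%). By shape these were 85 peaks (0.719%), 142 dips (1.2%) and 22 steps. With the replicate number of the crypts as a block, limma gave 0 genes (0%, smallest adjusted p = 0.136), and 520 genes (4.4%) reached 0.05 unadjusted. Both shares, 2.11% and 4.4%, were below the share of 0.05 that this threshold would pass if no gene differed. The test that asks jejunum to differ from each end on its own gave 0 genes in limma, with 11 peaks (0.093%) and 19 dips (0.161%) at an unadjusted p under 0.05. On recovered reads limma-voom called 0 genes, with 239 at an unadjusted p under 0.05, and 2 genes (0.0169%) with the replicate block. The 2 ends themselves did differ in the same fit: 72 genes passed between ileum and duodenum, 49 higher in ileum and 23 higher in duodenum, although the standard error of that difference was the larger one (median 0.26, against 0.22 for the jejunum contrast). With the replicate block the ends differed in 302 genes, 220 higher in ileum and 82 higher in duodenum. What follows describes values, and no gene named as higher or lower in jejunum passed the adjusted test.

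By fitted level 3635 genes (30.7%) were peaks, 3520 (29.8%) were dips and 4670 were steps. The contrast was above 0 for 50.1% of genes and below 0 for 49.9%. The jejunal library was the highest of the 3 in all 4 sets for 115 genes (0.973%) and the lowest in all 4 for 112 genes (0.947%). The shared deviation of a library enters these shares. The jejunal library was the highest for 37.5% of genes in crypt replicate 1, 14.5% in crypt replicate 2, 45.9% in organoids and 23.9% in villi. It was the lowest for 20.3%, 48%, 30.8% and 21.8% in the same order. A stricter order, with both jejunal crypt libraries beyond all 4 crypt libraries of the ends and the same in organoids and villi, held for 22 genes above (0.186%) and 42 below (0.355%). The plot of jejunum against each end shows where the named genes lie among all genes tested.

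**Figure D1:**
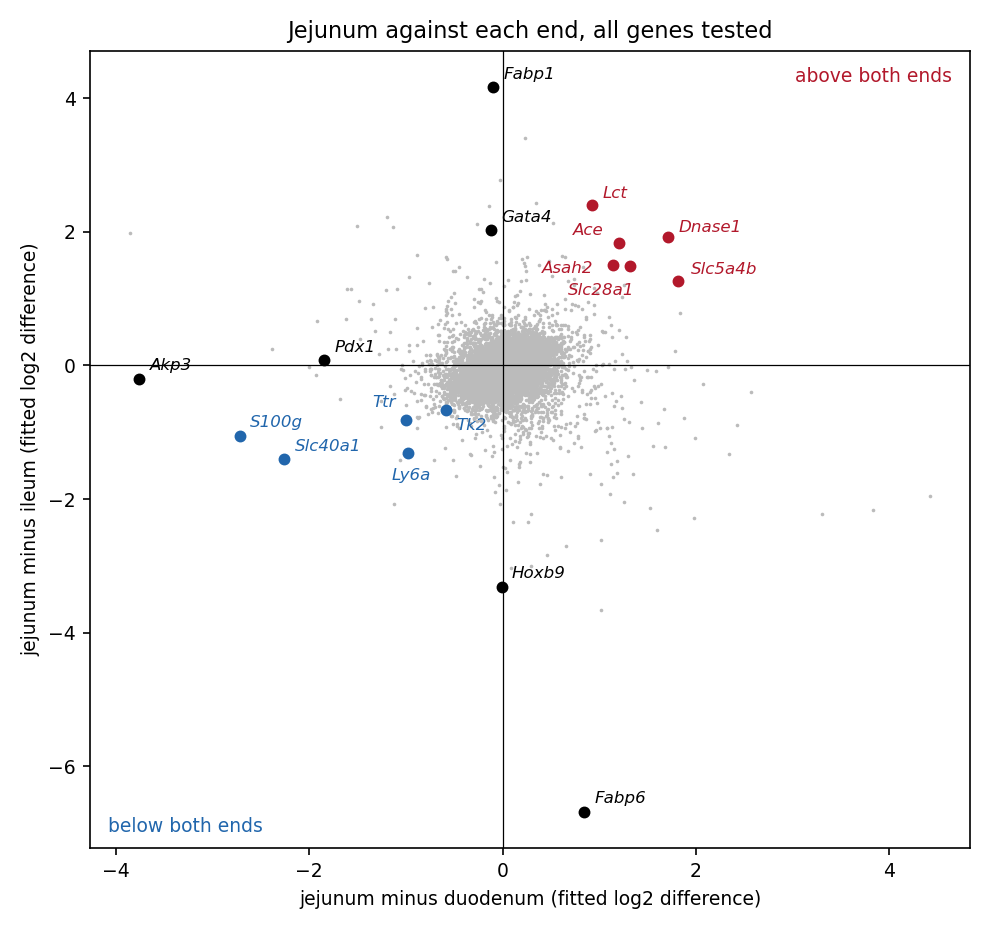
Fitted log2 difference of jejunum minus duodenum (horizontal axis) and jejunum minus ileum (vertical axis) for the 11825 genes tested, 1 grey point per gene. Red genes lie above both ends, blue genes below both, and black genes (Fabp1, Gata4, Hoxb9, Fabp6, Akp3, Pdx1) lie close to an axis or between the ends, which is the position of a gene that changes along the length.

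Genes of sugar digestion and uptake tended to stand highest in jejunum. Of 16 tested members of 17 listed, 10 were peaks (62.5%, against 30.7% of all genes) and 0 were dips. A contrast above 0 was found for 14, against 50.1% of all genes. The median contrast was 0.62, against 0.00 over all genes tested, with medians of 0.61 in crypts, 0.63 in organoids and 0.31 in villi. At an unadjusted p under 0.05 there were 3 members higher and 0 lower, and 0 passed after adjustment. For this and all lists below, the shares over all genes were 0.753% higher and 1.35% lower at that p. By shape they were 30.7% peaks and 29.8% dips. The jejunal villus library was the highest of its set for 7 of 16 members, against 23.9% of all genes. The 2 genes of the list with the smallest p were Slc5a4b, a sodium-linked glucose transporter family member, and Lct, the lactase that splits milk sugar.

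Slc5a4b (mm9 chromosome 10, 75521365 to 75573762, reverse strand) was listed at 0, 2.37 and 0.524 RPKM for duodenum, jejunum and ileum in crypt replicate 1. In crypt replicate 2 it was at 4.83, 16.9 and 3.38 RPKM. Organoids had 1.26, 15 and 5.58 RPKM and villi 59.5, 127 and 81.2 RPKM. The jejunal library was the highest in each of the 4 sets, while the crypt groups overlapped, with crypt replicate 1 low at every origin. The contrast was 1.54 (SE 0.52, unadjusted p = 0.0108, adjusted p = 1 in limma, and adjusted p = 0.136 with the replicate block). Its neighbour Slc5a4a, a close copy with which reads may have been split, was named after its values were seen. It was at 0.0924, 1.23 and 0.163 RPKM in crypt replicate 1, 8.57, 10.7 and 3.36 in crypt replicate 2, 0, 0.785 and 0.388 in organoids and 24.0, 32.8 and 13.1 in villi. It too was highest in jejunum in all 4 sets, with a contrast of 0.82 (SE 0.56).

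Lct (chromosome 1, 130181340 to 130224894, reverse strand) was at 2.40, 8.63 and 0.616 RPKM in crypt replicate 1 and 48.3, 108 and 2.64 RPKM in crypt replicate 2. Organoids held almost none, at 0.03, 0.724 and 0.306 RPKM, and villi had 428, 531 and 157 RPKM. Jejunum was highest in all 4 sets, and the ileum was the lower end in crypts and villi but not in organoids. The contrast was 1.67 (SE 0.75, unadjusted p = 0.0453, adjusted p = 1 in limma). Slc5a11, a sodium-linked inositol transporter named after its values were seen, was highest in jejunum in all 4 sets as well, at 66.8, 113 and 70.2 RPKM in villi (contrast 1.03, SE 0.66). Treh, the trehalase, was highest in jejunum in 3 sets, with a contrast of 0.92 (SE 0.71). In villi its level was instead highest in duodenum, at 534, 286 and 172 RPKM. The fructose transporter Slc2a5 differed little between duodenum and jejunum, at 47.5 and 48.4 RPKM in villi with 31.2 RPKM in ileum. Its contrast of 0.45 (SE 0.61) was -0.04 without jejunal crypt replicate 2. Sucrase-isomaltase, deposited as 2010204N08Rik (now Sis), showed no jejunal maximum in any set, at 51.3, 50.4 and 39.7 RPKM in villi. The sodium-linked glucose transporter Slc5a1 was highest in duodenum in crypts and villi. It was at 28, 25.9 and 16.1 RPKM in crypt replicate 1, 222, 182 and 87.2 in crypt replicate 2 and 269, 230 and 175 in villi. Only in organoids was jejunum the highest, at 29.1, 66 and 59.6 RPKM.

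**Figure D2:**
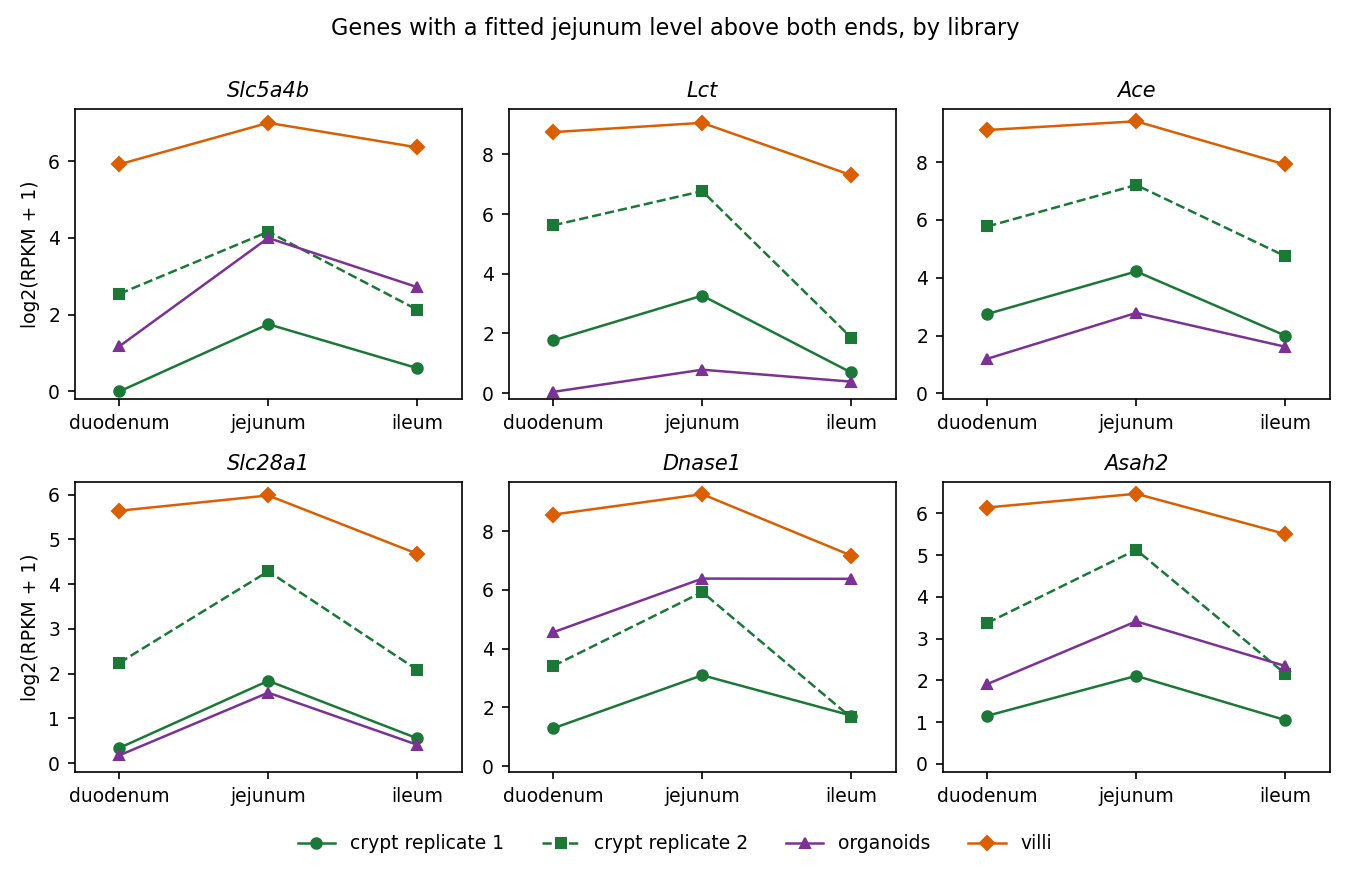
Level of 6 genes on the log2(RPKM + 1) scale (vertical axis) at each origin (horizontal axis), with 1 line per set of libraries: crypt replicate 1 and 2, organoids and villi. Every point is 1 library, and the jejunal point is the highest of its line in all 4 sets for each of the 6 genes, by a small margin for Dnase1 in organoids (82.6 against 82.1 RPKM in ileum).

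The 250 bases before the start of Lct and Slc5a4b are shown because both genes stood highest in jejunum in every set, with Slc28a1, another such gene, for comparison. Capitals mark every match, on either strand, to GATAA (the core that GATA factors bind), TTTATG (bound by caudal homeodomain factors), CAAAGTC (part of the site of the nuclear receptor HNF4) or GTTAAT (the core of the HNF1 site). Sequences are from RefSeq on GRCm38.p6, run 5′ to 3′ on the gene's strand, and their coordinates are of that build, not of mm9.
Lct: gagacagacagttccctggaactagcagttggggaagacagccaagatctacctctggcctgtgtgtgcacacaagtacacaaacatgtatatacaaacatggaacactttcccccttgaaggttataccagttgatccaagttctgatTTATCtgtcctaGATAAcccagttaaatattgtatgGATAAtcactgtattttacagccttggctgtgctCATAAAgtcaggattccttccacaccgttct
Slc5a4b: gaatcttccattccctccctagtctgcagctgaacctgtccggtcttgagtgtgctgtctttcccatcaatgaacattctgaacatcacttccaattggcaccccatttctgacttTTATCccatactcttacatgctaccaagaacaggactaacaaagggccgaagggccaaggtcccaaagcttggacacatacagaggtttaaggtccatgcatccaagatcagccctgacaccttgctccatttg
Slc28a1: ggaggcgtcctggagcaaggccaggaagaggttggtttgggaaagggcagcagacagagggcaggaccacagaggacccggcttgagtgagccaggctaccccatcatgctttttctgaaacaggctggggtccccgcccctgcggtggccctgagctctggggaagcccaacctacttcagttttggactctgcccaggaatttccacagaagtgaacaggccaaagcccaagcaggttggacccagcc
They lie at chr1:128328319-128328568 (reverse strand), chr10:76111019-76111268 (reverse strand) and chr7:81114549-81114798 (forward strand). Lct has 3 matches to GATAA, at bases -101 to -97, -89 to -85 and -65 to -61 from the start, and 1 to TTTATG at -31 to -26. None overlaps another. Slc5a4b has 1 match to GATAA, at -134 to -130, and none of these letters are in the window of Slc28a1. Over 32851 windows of the same length in the table, 22.6% hold GATAA, 10.8% TTTATG, 3.84% CAAAGTC and 6.43% GTTAAT. A match describes letters and is not evidence of a bound site. The motifs are textbook ones, picked after the sequences were seen.

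Genes of protein digestion and amino acid uptake leaned the same way. Among peptidases, 7 of 15 tested members were peaks (46.7%, against 30.7% of all genes) and 1 was a dip. Their median contrast was 0.55. Among peptide and amino acid transporters, 13 of 17 were peaks (76.5%) and 2 were dips, with a median of 0.25. At an unadjusted p under 0.05 there were 1 and 3 members higher and 0 lower, and after adjustment 0 in either list. In villi the medians were 0.07 and 0.10, and the jejunal library was the highest for 2 of 15 and 4 of 17 members, no more often than for all genes (23.9%).

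Ace (chromosome 11, 105829260 to 105851258, forward strand), a brush border peptidase best known for making angiotensin II, was at 5.71, 17.6 and 3 RPKM in crypt replicate 1 and 53.7, 147 and 25.9 RPKM in crypt replicate 2. Organoids had 1.29, 5.88 and 2.06 RPKM and villi 552, 681 and 241 RPKM. The jejunal library was highest in every set and the ileal one lowest in crypts and villi. The contrast was 1.52 (SE 0.66, unadjusted p = 0.038, adjusted p = 1 in limma and 0.136 with the replicate block). In limma-voom with the replicate block, an alternative chosen after seeing the data, Ace passed with a contrast of 1.75 (SE 0.25, adjusted p = 0.0123). The other peptidases were less regular. Mme, neprilysin, had a contrast of 0.86 (SE 0.60), but jejunum was the highest in organoids only, at 6.71, 31 and 9.94 RPKM. In crypts and villi Mme was highest in duodenum, with 84.5, 46.3 and 20.3 RPKM in villi. Anpep, aminopeptidase N, had a contrast of 0.70 (SE 0.75) with villus levels that were highest in ileum, 589, 1560 and 3050 RPKM.

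Slc7a8, a basolateral exchanger of neutral amino acids, was at 13.8, 21.5 and 6.65 RPKM in crypt replicate 1, 51.9, 97.2 and 24.9 in crypt replicate 2, 1.35, 3.13 and 1.58 in organoids and 54.6, 86.5 and 42.0 in villi. All 4 sets had their maximum in jejunum (contrast 1.02, SE 0.45, unadjusted p = 0.0412, adjusted p = 1 in limma). Slc15a1, the proton-linked peptide transporter PEPT1, was highest in jejunum in 3 sets but highest in ileum in villi, at 149, 193 and 217 RPKM (contrast 0.87, SE 0.78). Slc6a20 (now Slc6a20b), an imino acid transporter, was at 0.395 RPKM or less in crypts, at 1.45 RPKM in jejunal organoids against 0.0421 and 0.232 RPKM at the ends, and at 1.36, 2.25 and 3.46 RPKM in villi (contrast 0.41, SE 0.18, unadjusted p = 0.0441, adjusted p = 1 in limma). The cystine carrier subunit Slc7a9 ran from 129 to 158 and 308 RPKM in villi and is an example of a transporter with its villus maximum in ileum.

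Slc28a1 (chromosome 7, 88259684 to 88315301, forward strand) is the sodium-linked carrier of pyrimidine nucleosides. It was at 0.267, 2.58 and 0.471 RPKM in crypt replicate 1, 3.73, 18.5 and 3.25 in crypt replicate 2, 0.13, 1.98 and 0.331 in organoids and 48.8, 62.1 and 24.6 in villi. Jejunum was highest in every set, with the smallest relative margin over duodenum in villi. The contrast was 1.40 (SE 0.47, unadjusted p = 0.0105 in limma, adjusted p = 0.136 with the replicate block). Dnase1 (chromosome 16, 4037144 to 4040023), the secreted enzyme that cuts DNA, was at 1.45, 7.56 and 2.31 RPKM in crypt replicate 1 and 9.67, 59.8 and 2.16 in crypt replicate 2. It was at 22.6, 82.6 and 82.1 RPKM in organoids, where jejunum and ileum were nearly level, and at 377, 611 and 143 RPKM in villi. Its contrast was 1.82 (SE 0.57, unadjusted p = 0.00731, adjusted p = 1 in limma). Over the 14 tested genes of purine and nucleotide metabolism 7 were peaks (50%, against 30.7% of all genes) and 2 dips. The median contrast was 0.08. Xdh, xanthine dehydrogenase at the end of purine breakdown, had one of 0.58 (SE 0.43).

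Lists of fat handling had median contrasts above 0 in crypts and near 0 in villi. Of 16 tested genes of fat uptake and triglyceride synthesis 11 were peaks (68.8%) and 2 dips (median contrast 0.32). Of 11 genes of chylomicron assembly 8 were peaks (72.7%) and 1 a dip (median 0.42). Peaks made up 30.7% of all genes. The medians were 0.57 and 0.64 in crypts, 0.28 and 0.25 in organoids and -0.03 and 0.11 in villi. At an unadjusted p under 0.05 there were 2 and 0 members higher and 0 lower. Cd36 (chromosome 5, 17287833 to 17341513), which takes up long-chain fatty acids, was at 0.126, 1.10 and 0.111 RPKM in crypt replicate 1, 1.79, 3.01 and 0.129 in crypt replicate 2, 2.57, 11.1 and 5.41 in organoids and 18.9, 20.7 and 3.64 in villi. It was highest in jejunum in all 4 sets (contrast 1.15, SE 0.35, unadjusted p = 0.0061, adjusted p = 1 in limma), though by little over duodenum in villi.

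Apoa4, the apolipoprotein of nascent chylomicrons, was at 84.8, 163 and 6.04 RPKM in crypt replicate 1, 1210, 2780 and 66.3 in crypt replicate 2 and 122, 142 and 76.4 in organoids. In villi it was highest in duodenum, at 46900, 17200 and 2370 RPKM. Its contrast of 1.82 (SE 0.95) came mostly from the low ileum, since jejunum exceeded duodenum by 0.23 and ileum by 3.41. Apoc3 had a contrast of 1.39 (SE 0.88), with 11300, 4540 and 931 RPKM in villi and 154, 210 and 173 RPKM in organoids. Creb3l3, a membrane-bound factor that controls apolipoprotein genes, had a contrast of 1.13 (SE 0.68) and was highest in jejunum in 3 sets but not in villi (508, 337 and 288 RPKM). Mttp, which loads fat onto apolipoprotein B, was at 383, 440 and 294 RPKM in villi (contrast 0.73, SE 0.54). Jejunum was also its highest origin in crypt replicate 1 and organoids. In crypt replicate 2 duodenum was instead, at 137, 83.9 and 34.1 RPKM. Soat2, which esterifies cholesterol, was highest in jejunum in all 4 sets (contrast 0.63, SE 0.32). It is 1 of 3 such genes among the 9 tested for cholesterol uptake and efflux, of which 6 were peaks and 0 dips (median 0.22). Without jejunal crypt replicate 2 alone the contrasts of Fabp2 (0.68, SE 0.83) and Apoa1 (0.77, SE 0.90) were -0.11 and -0.07. That fit keeps crypt replicate 2 of the ends. In crypt replicate 1 both were highest in jejunum too, at 200, 512 and 282 RPKM for Fabp2 and 280, 959 and 519 RPKM for Apoa1. In villi neither was, at 4180, 7030 and 12600 RPKM and 43200, 25300 and 30400 RPKM, nor was Fabp2 in organoids.

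Asah2 (chromosome 19, 32059140 to 32177629), the neutral ceramidase of the brush border, was at 1.22, 3.31 and 1.07 RPKM in crypt replicate 1, 9.38, 34 and 3.47 in crypt replicate 2, 2.76, 9.66 and 4.08 in organoids and 69.6, 87.7 and 44.5 in villi. Each set had its maximum in jejunum (contrast 1.32, SE 0.52, unadjusted p = 0.0248, adjusted p = 1 in limma and 0.326 with the replicate block). Enpp7, the alkaline sphingomyelinase that acts before it on dietary sphingomyelin, was at 0.554, 5.52 and 1.22 RPKM in crypt replicate 1, 3.25, 45.7 and 13.6 in crypt replicate 2, listed at 0 in the 3 organoid libraries, and at 205, 737 and 784 RPKM in villi (contrast 1.31, SE 0.61). Villi thus had it about as high in ileum as in jejunum. Sphk1, which phosphorylates sphingosine, had a contrast of 0.94 (SE 0.31, unadjusted p = 0.0101, adjusted p = 1 in limma), with a difference of 0.25 against duodenum and 1.63 against ileum. In crypt replicate 1 it was higher in duodenum, at 17 RPKM, than in jejunum, at 12.3 RPKM. Sgpl1, the lyase that splits sphingosine phosphate and was named after its values were seen, had one of 0.93 (SE 0.48), with the jejunal library highest in all 4 sets. Over the 9 tested brush border hydrolases of lipids and phosphate 5 were peaks (55.6%, against 30.7% of all genes) and 1 a dip. Their median was 0.28.

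Several peaks lay outside digestion. Slc26a3 (chromosome 12, 32123165 to 32158583), the apical chloride-bicarbonate exchanger, was at 25.5, 39.3 and 20.9 RPKM in crypt replicate 1, 45.7, 73.4 and 44.2 in crypt replicate 2, 11.5, 36.7 and 15.2 in organoids and 29.0, 55.3 and 45.9 in villi. Jejunum was the highest in all 4 sets (contrast 0.86, SE 0.29, unadjusted p = 0.0101, adjusted p = 1 in limma). Pim1, a kinase induced by cytokines, was at 30.9 and 33.6 RPKM in jejunal crypts against 14.0 to 20.0 RPKM in crypts of the ends, so these groups did not overlap, while villi had 50.9, 46.9 and 33.5 RPKM (contrast 0.67, SE 0.20, unadjusted p = 0.00525, adjusted p = 1 in limma). Nr1i3, the nuclear receptor CAR that senses foreign compounds, had a contrast of 0.83 (SE 0.32) and differed little between duodenum and jejunum in villi (27.8 and 29.5 RPKM). Ppara, the nuclear receptor for fatty acids, had a contrast of 0.45 (SE 0.21) and was highest in jejunum in crypts and organoids. In villi it was about as high in ileum as in jejunum, at 4.92, 7.53 and 7.64 RPKM. Cyp4v3, a fatty acid hydroxylase, highest in jejunum in all 4 sets, had a contrast of 0.97 (SE 0.55). It belongs to the 31 tested cytochromes P450, of which 14 were peaks (45.2%, against 30.7% of all genes) and 4 dips (median 0.16). Without jejunal crypt replicate 2 alone these were 8 peaks and 9 dips (median -0.06). Without replicate 2 of all crypts they were 16 peaks and 3 dips among 30 (median 0.26). Aldh1a1, a retinal dehydrogenase, had a contrast of 0.78 (SE 0.62) with 106 RPKM in jejunal organoids against 23.8 and 53.6 RPKM at the ends. In villi it was highest in ileum, at 55.9, 100 and 112 RPKM. In crypt replicate 2 jejunum and ileum were nearly level, at 40.5 and 39.2 RPKM. Its list of 14 retinoid and alcohol genes had 4 peaks and 2 dips.

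The remaining genes that the naming rule gave as peaks were Mical1, an actin oxidase (contrast 0.67, SE 0.24), Mro (0.62, SE 0.22), Cdc14b, a phosphatase (0.55, SE 0.19), 3830402I07Rik (now Zfp738; 0.65, SE 0.17) and 4933407H18Rik (now Uvssa; 0.49, SE 0.17). Zfp738 had the smallest p of all peaks, 0.00207 unadjusted in limma, and every jejunal library above the ends of its tissue, at levels of 1.05 to 5.18 RPKM in jejunum. Its exon length of 436 bases and these levels mean few reads per library.

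Some genes highest in jejunum in all 4 sets were picked out after their values were seen. The monoamine oxidases Maoa and Maob, which lie side by side on the X chromosome, were at 65.2, 128 and 104 RPKM and at 20.8, 67.6 and 45.9 RPKM in villi, with contrasts of 0.85 (SE 0.41) and 1.23 (SE 0.53). Pck1, which commits carbon to gluconeogenesis, was at 60.3, 138 and 42.8 RPKM in villi (contrast 1.13, SE 0.49). The peroxisomal genes Hsd17b4 and Cat had smaller contrasts, 0.48 (SE 0.39) and 0.42 (SE 0.34).

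The enterocyte markers moved with these absorptive lists. Of the 17 markers 10 were peaks and 1 a dip, with a median contrast of 0.83 in crypts, 0.63 in organoids and 0.08 in villi, and most of them, Lct, Apoa4 and Slc15a1 included, are also members of those lists. Their part in the result was not tested, and in bulk samples more cells of a type and more RNA per cell cannot be told apart. Jejunal crypt replicate 2, the crypt library with the highest marker sum, weighs on the medians. Without that library alone the median contrast was 0.24 for carbohydrate digestion and sugar transport, 0 for peptide digestion, 0.12 for peptide and amino acid transport, 0.02 for fat uptake and triglyceride synthesis, 0.01 for apolipoproteins and chylomicron assembly and -0.07 for enterocyte markers. Without replicate 2 of all crypts, which keeps the origins balanced, these medians were 0.58, 0.56, 0.30, 0.31, 0.25 and 0.49. With crypts left out altogether they were 0.56, 0.35, 0.36, 0.12, 0.17 and 0.35. Single genes also had lower contrasts without the same library alone. Such a fit keeps crypt replicate 2 of the ends but not of jejunum. Enterocyte markers were higher in replicate 2 than in replicate 1, by a median log2 of 3.24, 3.16 and 3.21 in duodenum, jejunum and ileum. This imbalance by itself lowers the contrast of an enterocyte gene, so these values cannot tell whether a contrast rests on 1 library. Without jejunal crypt replicate 2 alone the contrast was 0.10 for Slc15a1, 0.13 for Anpep, 0.19 for Treh, 0.37 for Apoc3, 0.38 for Creb3l3, 0.76 for Apoa4 and 0.79 for Lct. It was 0.86 for both Ace and Slc28a1, 0.67 for Asah2, 0.56 for Enpp7 and Slc7a8, 1.07 for Slc5a4b and 1.12 for Dnase1. Of the genes picked after their values were seen, Slc5a4a had 0.35, Slc5a11 0.44, Sgpl1 0.51, Pck1 0.68 and Maob 0.73. For Cyp4v3 it was 0.36, for Aldh1a1 0.37, for Mme and Mttp 0.41 and for Xdh 0.27.

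**Figure D3:**
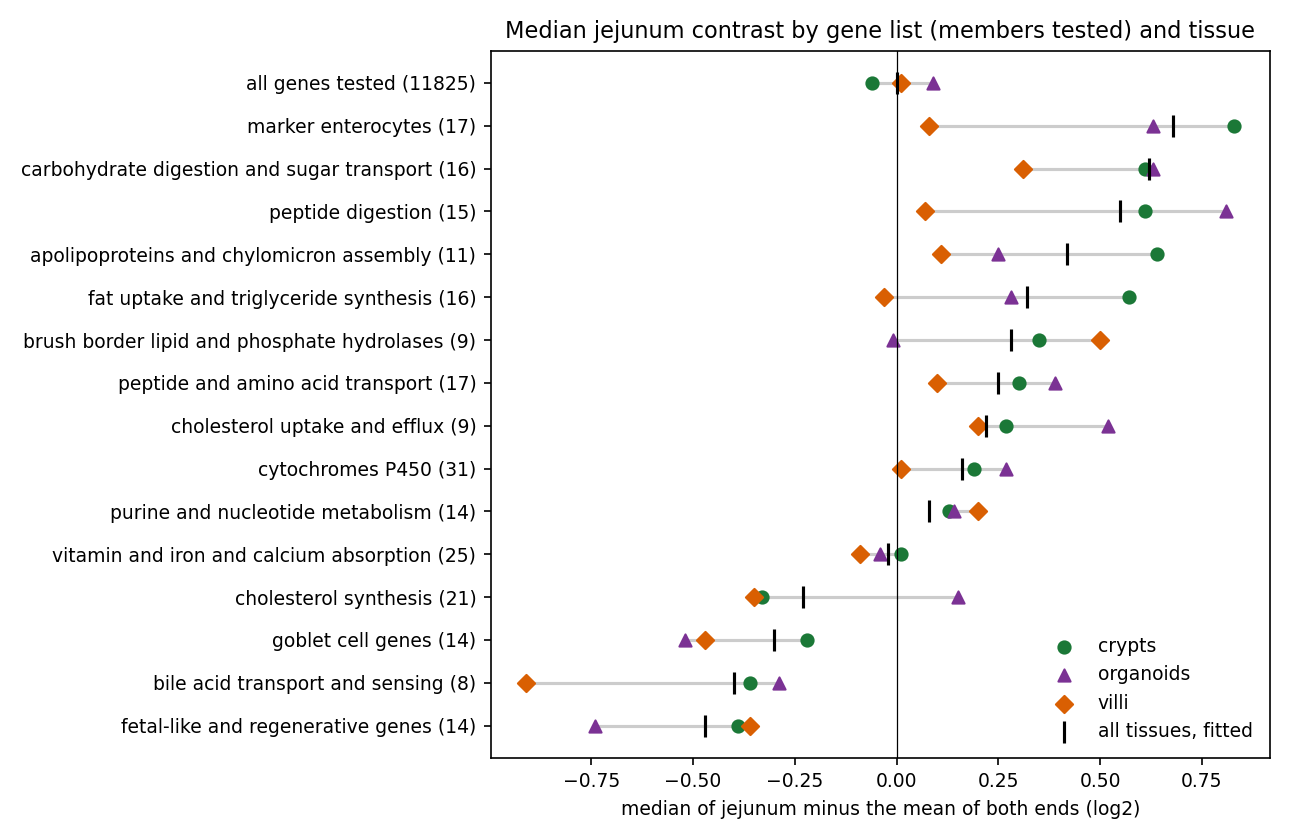
Median jejunum contrast (horizontal axis, log2) of each gene list (number of tested members in brackets) in crypts, organoids and villi, with a black bar for the fit over all tissues. Lists of sugar, peptide and fat handling lie right of 0 in crypts, with villus medians of 0.31, 0.07 and -0.03 that lie left of the crypt medians. The fetal-like and goblet cell lists lie left of 0 in each tissue.

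Of the dips, 2 were genes of mineral transport known from the duodenum. S100g (chromosome X, 159399923 to 159402530, reverse strand) encodes calbindin D9k, which ferries calcium through the enterocyte. It was at 17.8, 5.02 and 7.69 RPKM in crypt replicate 1, 136, 9.23 and 27.0 in crypt replicate 2, 1380, 692 and 1930 in organoids and 152, 5.69 and 10.1 in villi. The jejunal library was the lowest in all 4 sets. The contrast was -1.89 (SE 0.59, unadjusted p = 0.007, adjusted p = 1 in limma), with -2.72 against duodenum and -1.05 against ileum. Without any 1 library it lay between -2.21 and -1.56.

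Slc40a1 (chromosome 1, 45964914 to 45982438, reverse strand) encodes ferroportin, the only known exporter of iron from cells. It was at 0.393, 0.543 and 3.24 RPKM in crypt replicate 1, 14.9, 0.639 and 5.30 in crypt replicate 2, 5.82, 0.541 and 0.58 in organoids and 22.1, 0.716 and 6.71 in villi. All 4 jejunal libraries lay between 0.541 and 0.716 RPKM, and jejunum was the lowest in 3 sets, duodenal crypt replicate 1 being the exception. The contrast was -1.83 (SE 0.55, unadjusted p = 0.00522, adjusted p = 1 in limma). Without duodenal crypt replicate 1 it passed, at -2.26 (SE 0.27, adjusted p = 0.0153). That library had the fewest reads of all, 5268480. Of the 25 tested genes of vitamin, iron and calcium absorption 8 were dips (32%, against 29.8% of all genes) and 4 peaks. The median contrast was -0.02, so the low jejunal level was not shared by the list.

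**Figure D4:**
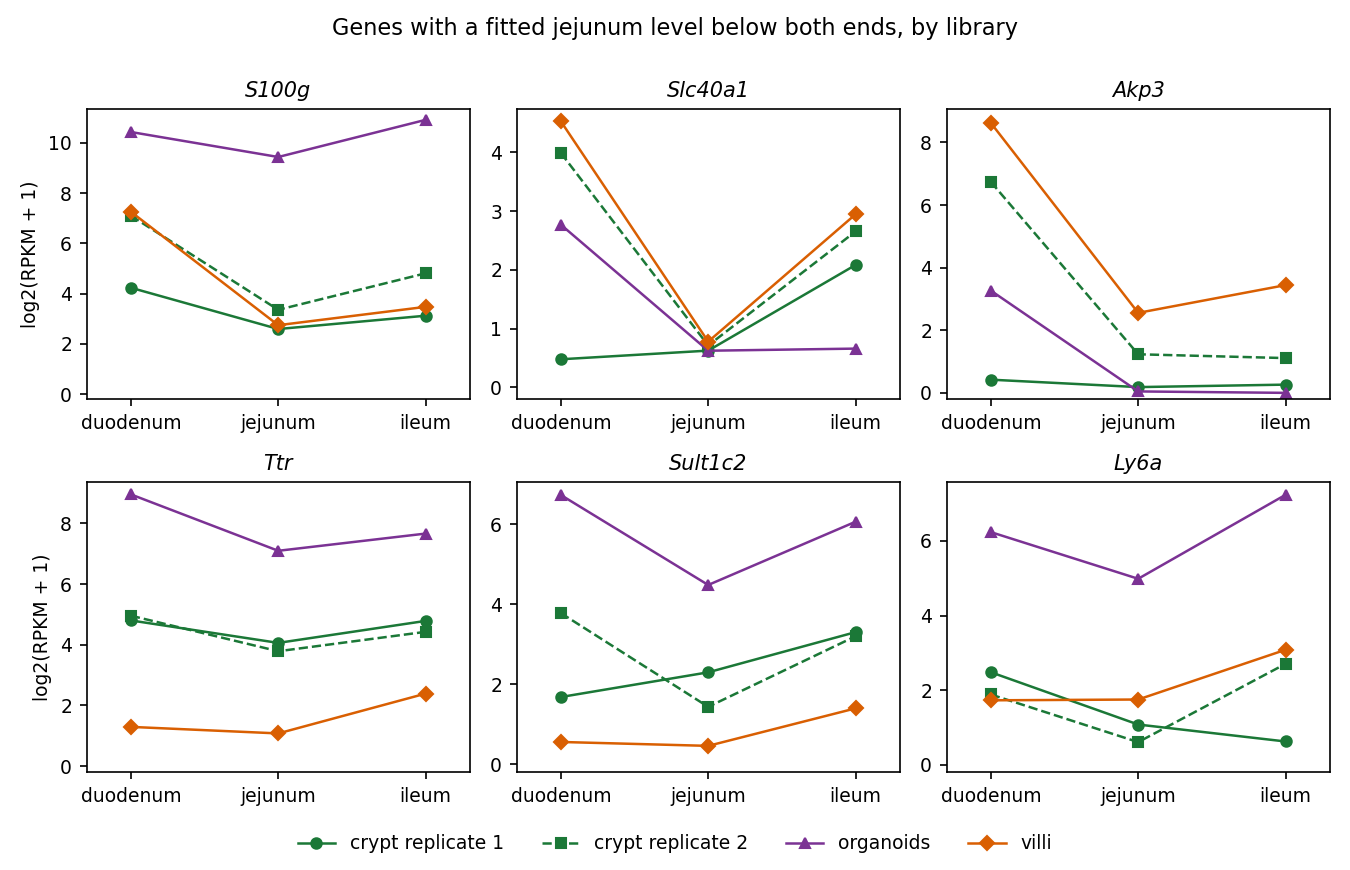
Level of 6 genes on the log2(RPKM + 1) scale (vertical axis) at each origin (horizontal axis), with 1 line per set of libraries: crypt replicate 1 and 2, organoids and villi. The jejunal point is the lowest of its line in all 4 sets for S100g and Ttr, while Akp3 is high in duodenum and similar in jejunum and ileum.

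The 250 bases before the start of S100g are shown because it was the mineral transport gene lowest in jejunum in every set, with the same motifs and source as above (RefSeq, GRCm38.p6, chrX:162964600-162964849, reverse strand).
S100g: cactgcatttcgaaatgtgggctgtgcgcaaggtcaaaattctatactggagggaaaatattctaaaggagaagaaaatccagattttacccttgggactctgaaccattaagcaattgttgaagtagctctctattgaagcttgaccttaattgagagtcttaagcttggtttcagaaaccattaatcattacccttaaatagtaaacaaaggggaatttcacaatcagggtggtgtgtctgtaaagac
It has no capitals, since none of the 4 motifs' letters are in this window.

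Akp3 (chromosome 1, 89021582 to 89024486), an alkaline phosphatase of the duodenal brush border, shows how an end can look like a dip. It was at 0.339, 0.136 and 0.20 RPKM in crypt replicate 1, 106, 1.35 and 1.16 in crypt replicate 2, 8.63, 0.032 and 0 in organoids and 394, 4.88 and 9.87 in villi. The contrast was -1.98 (SE 0.86, unadjusted p = 0.0377, adjusted p = 1 in limma), but the difference was -3.76 against duodenum and -0.20 against ileum. In limma-voom with the replicate block it passed at -3.33 (SE 0.49, adjusted p = 0.0123). Reads of its close relatives in the same cluster, Alpi among them, may have been split between them.

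Ttr (chromosome 18), transthyretin, the carrier of thyroid hormone and retinol-binding protein, was at 26.9, 15.7 and 26.6 RPKM in crypt replicate 1, 30.1, 12.8 and 20.5 in crypt replicate 2, 496, 136 and 202 in organoids and 1.45, 1.11 and 4.24 in villi. Every jejunal library lay below both ends of its tissue (contrast -0.90, SE 0.28, unadjusted p = 0.00593, adjusted p = 1 in limma). The same held for Cpn1, carboxypeptidase N, at 0.960 and 0.784 RPKM in jejunal crypts against 1.70 to 5.68 RPKM at the ends (contrast -0.92, SE 0.27). Gpr120 (now Ffar4), a receptor for long-chain fatty acids, had a contrast of -0.87 (SE 0.27), with -0.23 against duodenum and -1.51 against ileum, and was highest in ileum in all 4 sets. Insl5, an enteroendocrine hormone, was listed at 0 in both jejunal crypt libraries and at 1.31 and 1.85 RPKM in ileal ones (contrast -0.72, SE 0.21). Duodenal crypts had 0.831 and 0.31 RPKM, organoids 0, 0.471 and 3.6 RPKM and villi 0, 0 and 0.602 RPKM. Insl5 was thus highest in ileum in each set and rested on few reads, at most 34 in a library.

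Genes of goblet cells, which secrete mucus, mostly had contrasts below 0. Of 14 tested members 11 had a contrast below 0, against 49.9% of all genes, with a median of -0.30. Only 3 were dips (21.4%, against 29.8% of all genes) and 2 were peaks. At an unadjusted p under 0.05 in limma, 2 were lower, against 1.35% of all genes. After the correction for exon length described below the median was -0.11. Klk1, a tissue kallikrein, was at 34.9 and 31.6 RPKM in jejunal crypts against 54.0 to 132 RPKM at the ends, at 188, 91.9 and 160 RPKM in organoids and at 9.94, 17.0 and 62.5 RPKM in villi (contrast -0.96, SE 0.33, unadjusted p = 0.0122, adjusted p = 1 in limma). Atoh1, the factor that starts the secretory lineage, was a step with its high end in ileum, 3.40 and 3.67 RPKM in jejunal against 6.10 and 10.2 RPKM in ileal crypts (contrast -0.49, SE 0.22).

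Genes of the fetal-like and regenerative state of the epithelium, a set that includes surface proteins and annexins raised after injury, had the lowest median of the 42 lists. Of 14 tested members 10 were dips (71.4%, against 29.8% of all genes) and 1 was a peak. The median contrast was -0.47 (-0.39 in crypts, -0.74 in organoids, -0.36 in villi). At an unadjusted p under 0.05 in limma, 3 were lower, against 1.35% of all genes. Ly6a, also called Sca-1, was at 4.58, 1.11 and 0.54 RPKM in crypt replicate 1, 2.69, 0.522 and 5.52 in crypt replicate 2, 74.5, 30.7 and 150 in organoids and 2.31, 2.36 and 7.47 in villi (contrast -1.14, SE 0.39, unadjusted p = 0.0115, adjusted p = 1 in limma). It was lowest in jejunum in 2 of the 4 sets. Anxa1, an annexin, was at 6.42, 1.5 and 7.54 RPKM in organoids and under 1 RPKM in crypts and villi (contrast -0.64, SE 0.22).

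Of 21 tested cholesterol synthesis genes 19 had a contrast below 0, against 49.9% of all genes. By shape 15 were steps, 6 were dips and 0 were peaks, and dips made up 29.8% of all genes. The jejunal library was the lowest for 3 members in crypt replicate 1, 18 in crypt replicate 2, 10 in organoids and 1 in villi. The shares over all genes were 20.3%, 48%, 30.8% and 21.8%. The median was -0.23, with -0.33 in crypts, -0.35 in villi and the opposite sign, 0.15, in organoids. No member had an unadjusted p under 0.05 in limma. Fdps, farnesyl diphosphate synthase, was at 5.81 and 8.57 RPKM in jejunal crypts against 7.77 to 25.1 RPKM at the ends (contrast -0.69, SE 0.41). Tm7sf2, a sterol reductase, had a contrast of -0.60 (SE 0.35). In villi both were highest in ileum and lowest in duodenum, at 3.75, 6.51 and 25.3 RPKM for Fdps and 14.7, 16.9 and 63.8 RPKM for Tm7sf2. Without replicate 2 of all crypts the median of cholesterol synthesis was -0.01.

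Other dips named by the rule were mostly at low or modest levels. Sult1c2, a sulfotransferase, was at 105, 21.3 and 65.7 RPKM in organoids (contrast -1.17, SE 0.37, unadjusted p = 0.00777, adjusted p = 1 in limma). Tk2, the mitochondrial thymidine kinase, was below both ends in every set, at 1.45 and 0.776 RPKM in jejunal crypts against 2.15 to 3.21 RPKM at the ends (contrast -0.62, SE 0.17, unadjusted p = 0.00268, adjusted p = 1 in limma). AI413582 (-0.75, SE 0.21), Cox6b2, a testis-type subunit of cytochrome oxidase (-0.68, SE 0.20), and Acta1, skeletal muscle actin (-0.81, SE 0.24) were other dips. The interferon-induced genes Oas1a (-0.69, SE 0.25), Bst2 (-0.62, SE 0.25) and Oas1f (-0.45, SE 0.13) were lower, while the 36 tested interferon response genes had a median contrast of -0.01 with 9 peaks and 8 dips. Single members of other lists were Alox5ap of tuft cells (-0.63, SE 0.28), the claudin Cldn8 (-0.65, SE 0.23), Ier3 of the immediate early genes (-0.48, SE 0.20), Sprr1a of the antimicrobial list (-0.92, SE 0.42) and Ascl2 of stem cells (-0.48, SE 0.22).

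Exon length moved with the direction of these differences, and its part in them was not tested. The 115 genes highest in jejunum in all 4 sets had a median exon length of 3547 bases, against 2620 over all genes tested, and 50 of them were in the longest quartile and 4 in the shortest. The 112 genes lowest in all 4 sets had a median of 1374.5 bases, with 2 in the longest quartile and 72 in the shortest. The trend was largest in organoids. From the shortest to the longest quartile of genes the median contrast was -0.49, -0.01, 0.25 and 0.45 in organoids, -0.09, -0.06, -0.06 and -0.05 in crypts and -0.07, 0.00, 0.04 and 0.04 in villi. After each library's trend with exon length was removed, a correction chosen after seeing the data, 125 genes were highest and 85 lowest in all 4 sets, with 42 and 25 shared with the uncorrected sets. Contrasts of the leading genes then were 1.57 for Slc5a4b, 1.56 for Lct, 1.37 for Slc28a1, -1.59 for S100g and -1.88 for Slc40a1. Those of AI413582 and Cox6b2 were -0.48 and -0.40. The median contrasts of sugar genes (0.60), peptidases (0.56) and the fetal-like list (-0.34) kept their sign.

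**Figure D5:**
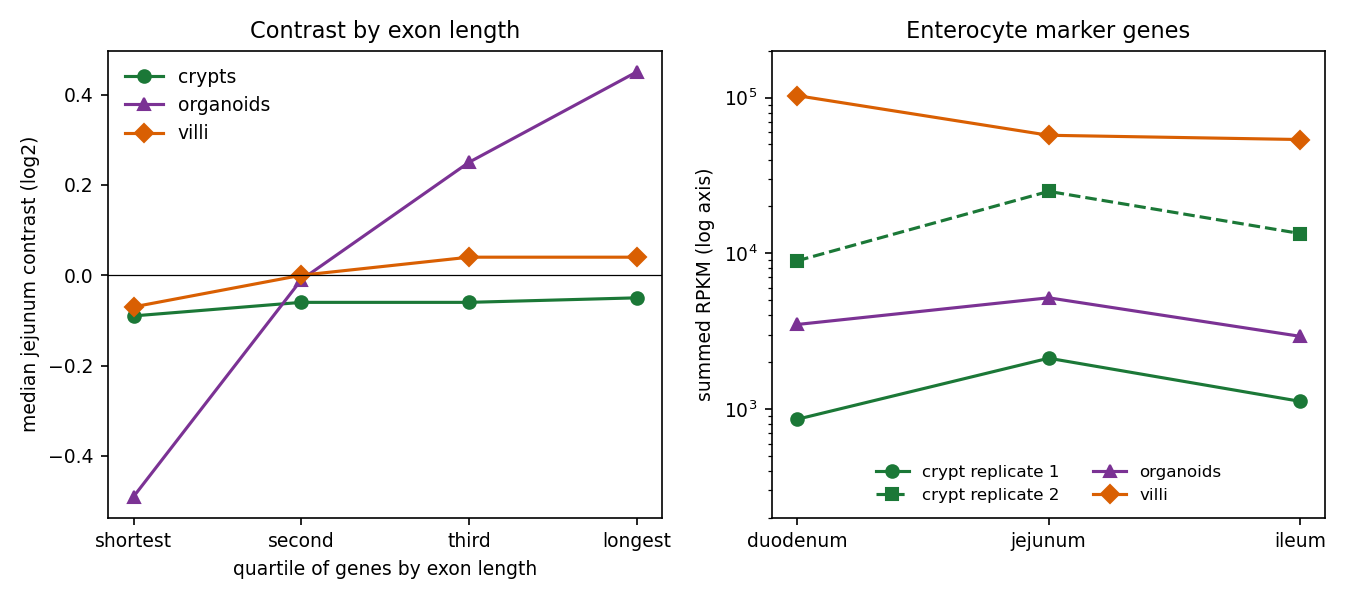
Left, median jejunum contrast (log2) of the genes in each quartile of exon length, by tissue: organoids run from -0.49 to 0.45, while crypts and villi stay between -0.09 and 0.04. Right, summed RPKM (log axis) of 17 enterocyte markers in each library, with 1 line per set: jejunum is the highest point in both crypt sets and in organoids, and not in villi.

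Several genes with a large contrast differed between the ends, with jejunum near 1 of them. The smallest unadjusted limma p of all was that of Hoxb9 (0.000437, contrast -1.66, SE 0.36), a positional homeodomain factor. It was at 0 to 0.297 RPKM in the 4 jejunal and 0 to 0.141 RPKM in the duodenal libraries, and at 20.9 and 27.6 RPKM in ileal crypts. Its difference between jejunum and duodenum was -0.01, and Hoxb8 (contrast -1.06, SE 0.25) and Hoxb7 (-0.97, SE 0.21) were likewise highest in ileum in all 4 sets. Fabp6, the ileal bile acid-binding protein, gave the lowest contrast of all genes (-2.92, SE 0.99), with 50.8 RPKM in jejunal against 14600 RPKM in ileal crypt replicate 2, and Slc10a2, the bile acid transporter, gave -1.36 (SE 0.61). Fabp1, the liver-type fatty acid-binding protein, gave the highest contrast, 2.03 (SE 0.90), though the difference was -0.10 against duodenum and 4.17 against ileum. Gata4, a factor of the proximal intestine, had 35.1 and 81.6 RPKM in jejunal against 39.1 and 95.2 RPKM in duodenal and 3.29 and 11.7 RPKM in ileal crypts (contrast 0.96, SE 0.41). Pdx1, a duodenal factor named after its values were seen, was the opposite case, at 6.84 RPKM in duodenal and 0 in jejunal crypt replicate 2 (contrast -0.89, SE 0.36). Without duodenal crypt replicate 1 it passed in limma, at -1.19 (SE 0.15, adjusted p = 0.0153). Defcr20 (now Defa20), a Paneth cell defensin, lay between its ends, at 53.7, 3260 and 9050 RPKM in crypt replicate 2 (contrast 1.23, SE 0.55). Reads of near-identical defensins may have been split between them.

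The jejunum contrast was also compared between tissues. It differed between villi and crypts for 0 of 11825 genes in limma (33 at an unadjusted p under 0.05) and between organoids and crypts for 0 genes (233 at an unadjusted p under 0.05). In the fit with the replicate block limma again gave 0 and 0, with 106 and 557 below 0.05 unadjusted. These tests assume that the single villus and organoid libraries vary like the crypt libraries. Among lists with a median contrast near 0 were cell cycle genes (7 peaks and 7 dips among 27, median -0.04), stem cell genes (6 and 6 among 21, median 0.01), enteroendocrine hormones (1 and 3 among 19, median -0.04), tuft cell genes (7 and 3 among 17, median 0.03) and conjugation and efflux genes (8 and 8 among 38, median 0.03). Leaving out single libraries moved several of these. A fit without 1 jejunal crypt library keeps the crypt libraries of the ends with the same number, so its counts cannot be laid to that library. Stem cell genes had 16 peaks and 2 dips (median 0.29) without jejunal crypt replicate 2, and 2 peaks and 14 dips (median -0.13) without jejunal crypt replicate 1. Cell cycle genes had 12 peaks and 3 dips without jejunal crypt replicate 2, and conjugation and efflux genes 3 peaks and 13 dips. Without jejunal crypt replicate 1 these were 7 and 12 for cell cycle genes and 12 and 6 for conjugation and efflux genes. Without replicate 2 of all crypts, which keeps the origins balanced, peaks and dips were 11 and 2 for stem cell genes. They were then 15 and 2 for cell cycle genes and 12 and 6 for conjugation and efflux genes. Without replicate 1 of all crypts they were 5 and 7 among 20 stem cell genes. Cell cycle genes then had 5 and 14, and conjugation and efflux genes 3 and 12. Without the jejunal villus library cell cycle genes had 5 and 14, tuft cell genes 3 and 6 and conjugation and efflux genes 15 and 5. The enteroendocrine hormones had a median of -0.54 in organoids, and without the jejunal organoid library 14 of 19 had a contrast above 0. Tuft cell genes, 16 of them tested, then had 4 peaks and 7 dips. Paneth cell genes were steps for 14 of 15 members (median 0.10), and MHC class II genes had 6 peaks and 1 dip among 9, with medians of 0.64 in crypts and -0.45 in villi. Without jejunal crypt replicate 1 alone the list had 0 peaks and 7 dips (median -0.23). Without replicate 1 of all crypts it had 2 peaks and 4 dips (median -0.03).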

How the data were processed

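Poly(A) RNA of 12 libraries was sequenced on a SOLiD 4 in reads of 50 bases, per the labels' protocols. The submitters' processing notes name BWA and mm9. Not given in the sources used here: versions, gene models, strand, and whether mm9 starts count from 0 or 1. Each file that the authors deposited lists RPKM per transcript, per the file headers. The 21247 transcripts were reduced to 19012 symbols by the longest exon length, the first on ties. RPKM values came out as whole reads (at least 99.9535% of values in each library, tolerance 0.02), which gave the depth.

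Genes with the equivalent of 10 reads at the median depth in at least 3 libraries and 15 reads in total were kept. Levels were log2(RPKM + 1), so differences of low genes are understated. The model in limma 3.58.1 (R 4.3.3, trend) had tissue and origin, 7 residual degrees of freedom and Benjamini-Hochberg adjustment over all genes tested. The script was tested on simulated data. The error of this fit also holds differences of the origin pattern between tissues, to which organoid and villus libraries contribute. In the comparison of the contrast between tissues, single-library groups rest on the spread between the crypt libraries.

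Crypt libraries with the same replicate number deviated together (r over genes 0.413, 0.502 and 0.785 for the 3 pairs of origins). The numbers may thus pair the samples, which the labels do not say, and a replicate block was an alternative. Each SE is from the fit without the block unless another fit is named. Its median was 0.22, and 0.19 with the block. For Ace it was 0.66 and 0.23, for Aldh1a1 0.62 and 0.22 and for Hoxb9 0.36 and 0.35. The others were pseudocounts of 0.1 and 0.5, filters, scaling, limma-voom on recovered reads, leaving out each library or tissue and, chosen after seeing the data, an exon-length correction and fits that join the block with voom, scaling or length.

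Named genes were up to 12 peaks and 12 dips with a mean of at least 1 RPKM by increasing p, up to 2 genes of smallest p from each of 42 lists (851 of 871 entries matched), and fixed genes of interest; others are said to have been picked after their values were seen. The genes and lists were chosen with earlier results of these data known.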

Additional observations from a re-analysis of the deposited data

How the results depend on the processing

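Leaving out 1 library at a time gave 0 to 2 genes called in limma (0 to 1 dips, 0 peaks). The 2 were Slc40a1, a dip, and Pdx1, a step, both without duodenal crypt replicate 1. Limma-voom on recovered reads with the replicate block called 2 genes, 1 peak (Ace) and 1 dip (Akp3), an alternative chosen after seeing the data. The replicate block alone called 0 genes, as did every other setting run, and 0 genes differed from each end in any. Over 78 named genes and 29 alternatives, 2206 of 2213 values kept direction and side of the threshold, 4 passed it and 3 turned sign. Those were Slc2a5 (-0.04), Fabp2 (-0.11) and Apoa1 (-0.07), all without jejunal crypt replicate 2, and without any 1 library they ranged up to 0.97, 1.22 and 1.31. The cause was not tested. Many of the 78 genes were named by their values in these same libraries, so keeping direction is no independent test of them. As no gene passed in the main fit, keeping the side of the threshold means staying uncalled. The fit had 7 residual degrees of freedom, with 1 library in 6 of 9 groups. A value of 0 in duodenal crypt replicate 1 rests on 5268480 reads.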
